A study of Chlamydomonas reinhardtii with 42 samples.

Results

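In the green alga Chlamydomonas reinhardtii, 200 loci stood higher in the strain DHC16 at 48 h than in any other library of the same table. They were chosen on exactly that pattern. The cultures were labelled as given vitamin B12 and thiamine. The loci carry no gene symbol in the authors' rapamycin tables, which list 76 of them at either time. Any of them may have a name elsewhere. Among the 17114 genes of the table, 14252 had a mean normalized count of at least 10 over the 17 libraries, and 13489 of these had no symbol in the authors' rapamycin tables. For each gene a score was taken on the log2(normalized count + 1) scale, the lowest of the 3 DHC16 48 h libraries minus the highest of the other 14. The 200 highest scores with a DHC16 difference between 48 h and 0 h of at least 1 were kept. Levels and differences that involve the DHC16 48 h libraries are therefore descriptions, and no test is given for them.

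The groups were DHC16 at 0, 12 and 48 h and the strain A31 at 0, 12 and 48 h. These times are those of the sample labels. The series text gives vitamin times of 31 h and 43 h instead, and which of the 2 is right could not be settled. Every group had 3 libraries except A31 at 48 h, which had 2 (numbers 19 and 22). A further A31 48 h record of the study has no column in this table, so that library was not analysed. All cultures of this table are labelled as given both vitamins, the 0 h cultures included, and the vitamins were added to deplete ClpP1. The growth note spells the second strain DCH16, gives Tris-acetate medium, and lists light, dim light and darkness without saying which culture had which. Which strain loses ClpP1 is not stated in the labels, nor is it stated that libraries of a group were grown apart. A p-value here covers the scatter among the libraries at hand, and that scatter may be technical. No culture without vitamins at 12 h or 48 h was analysed here, so time in culture and vitamins cannot be told apart within a strain. A separate part of the study gave rapamycin to A31 for 2 h and 8 h.

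ClpP1 is a proteolytic subunit of the Clp protease, an ATP-dependent enzyme that removes unwanted or damaged proteins from the chloroplast stroma. Small heat shock proteins, Deg proteases and the chaperone ClpB are known parts of chloroplast protein quality control in this alga. Rapamycin inhibits TOR, a kinase that promotes growth and restrains autophagy.

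The libraries held 7458423 to 13699705 reads, and 1 read was worth 0.703 to 2.04 normalized counts. A normalized count also grows with transcript length, so levels are compared between libraries and not between genes. The 2 A31 48 h libraries lay far apart for several of these genes, and results that rest on them are given without each.

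The median of the 200 group means was 46.5 normalized counts at 0 h, 45.3 at 12 h and 475 at 48 h in DHC16, where single genes ran from 42.2 to 12130 at 48 h. In A31 the median was 36.4 at 0 h, 44.0 at 12 h and 54.2 at 48 h. The groups other than DHC16 at 48 h thus had medians within a narrow band. The DHC16 difference between 48 h and 0 h had a median of 3.59 on the log2 scale over the 200 genes and ran from 1.66 to 10.45, against a median of 0.06 over all 14252 genes. It was under 2 for 11 genes, from 2 to under 3 for 58, from 3 to under 5 for 87 and at least 5 for 44. These values chose the genes and support nothing by themselves.

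**Figure D1:**
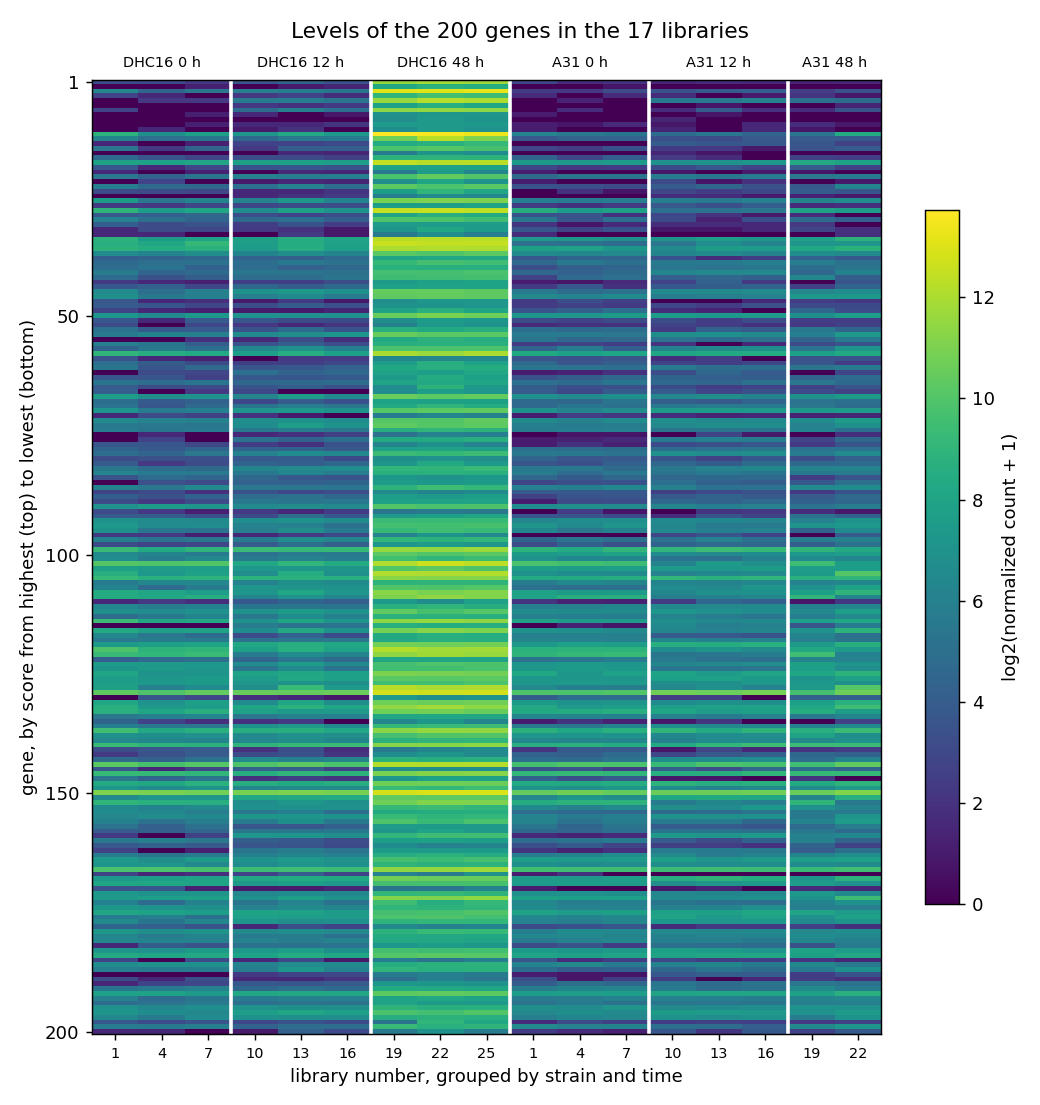
Each row is one of the 200 genes, ordered by score, and each column one of the 17 libraries, grouped by strain and time. Colour gives log2(normalized count + 1). The 3 DHC16 48 h columns are brighter than the rest in every row, which the choice of the genes fixes, and the top rows are near 0 elsewhere.

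The genes differed in how silent they were outside DHC16 at 48 h. A total of 131 had more than 3 reads in each of the other 14 libraries, and 6 had at most 3 reads in each of them. In the DHC16 0 h libraries, 6 genes had no read at all and 27 had at most 3 reads in each library. Without the DHC16 48 h libraries, 152 of the 200 would reach a mean of 10, so the other 48 entered through the group in which they are high. The 3 DHC16 48 h libraries agreed closely for most genes. Their coefficient of variation had a median of 10.8%, it was under 20% for 149 genes and at least 50% for 8. The score took the lowest of these 3 libraries, so the choice itself favoured genes in which they agree. No value over all genes is set beside it, and nothing is read from it. Library 22 was the highest of the 3 for 94 genes (47%) and library 19 the lowest for 100 (50%), against 35.9% and 33.7% of all genes.

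The score ran from 7.09 to 1.496, with a median of 2.07. The genes just inside were Cre11.g477200, Cre18.g744250 and Cre02.g137700. Cre11.g477200 is the one of these whose DHC16 48 h libraries were far apart, at 36.6, 522 and 292 normalized counts. Just outside stood Cre12.g502227, Cre12.g540550 and Cre10.g432900, and the first of them scored 1.494. The scores on both sides of the limit were thus almost equal.

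Several of the genes with the highest scores were close to unread elsewhere. Cre12.g502600, with the highest score, had 8.17, 7.72 and 3.92 normalized counts in DHC16 at 0 h, 11.8, 20.6 and 10.0 at 12 h, and 2958, 3654 and 3210 at 48 h. Its lowest DHC16 48 h library was 143 times its highest other one. All 8 A31 libraries lay between 1.57 and 6.71, below every DHC16 12 h library. Cre01.g065750 had 289, 416 and 354 normalized counts in DHC16 at 48 h. No other library held more than 1.67, and 10 of the other 14 held no read.

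Cre07.g343050 combined a high score with one of the highest normalized counts. It had 8442, 8530 and 9365 normalized counts in DHC16 at 48 h, against 77.6, 21.2 and 40.5 in DHC16 at 0 h. In A31 all 8 libraries held between 3.81 and 16.4, so the ranges of the strains did not meet at any time. Cre01.g053950 had 509, 803 and 681 normalized counts in DHC16 at 48 h and at most 6.13 elsewhere. Cre13.g569400 had 3145, 4711 and 4247 normalized counts in DHC16 at 48 h, and its highest other value was 65.6, in A31 at 12 h. This gene, unlike the 4 above it, was read at an intermediate level at 12 h in both strains.

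Of the genes at ranks 6 to 11, all but Cre17.g723400 were weakly read outside DHC16 at 48 h. Cre17.g723400 had 27.5, 59.0 and 31.8 normalized counts in DHC16 at 12 h. Cre02.g121300 had 231, 391 and 262 normalized counts in DHC16 at 48 h and no read in any DHC16 0 h library. Against a floor of 3 reads per library, its mean was at least 55.9-fold higher than in DHC16 at 0 h. Cre03.g177250 had 104, 164 and 126 normalized counts in DHC16 at 48 h, and a single one of the other 14 libraries (A31 library 10, 1.68) held any read of it. Its mean was at least 24.9-fold above the same floor. Cre03.g151650, Cre17.g740800 and Cre12.g537250 had means of 138, 163 and 130 normalized counts in DHC16 at 48 h, and none exceeded 3.35 in another library. Cre17.g740800 was also the most even of these, with a spread of 4.15 (SD, n = 3).

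Cre02.g106450, the twelfth by score, had the highest level of all. It had 13494, 12162 and 10723 normalized counts in DHC16 at 48 h, against 474, 112 and 213 in DHC16 at 0 h, a ratio of means of 45.6. In A31 at 48 h its libraries differed, at 41.5 and 341. After Cre02.g106450 and Cre07.g343050, the highest normalized counts belonged to Cre15.g643550 and Cre13.g587050, which were well read everywhere. Cre15.g643550 had 7365, 8150 and 7984 normalized counts in DHC16 at 48 h, against 2109, 2024 and 1764 in DHC16 at 0 h. Its mean was 3.98 times as high. Cre13.g587050 had 7037, 6796 and 7188 normalized counts in DHC16 at 48 h, against 1274, 990 and 1350 in DHC16 at 0 h, 5.82 times as high in the mean. The group therefore holds loci that were almost off and loci that were well read and moved by a few fold.

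**Figure D2:**
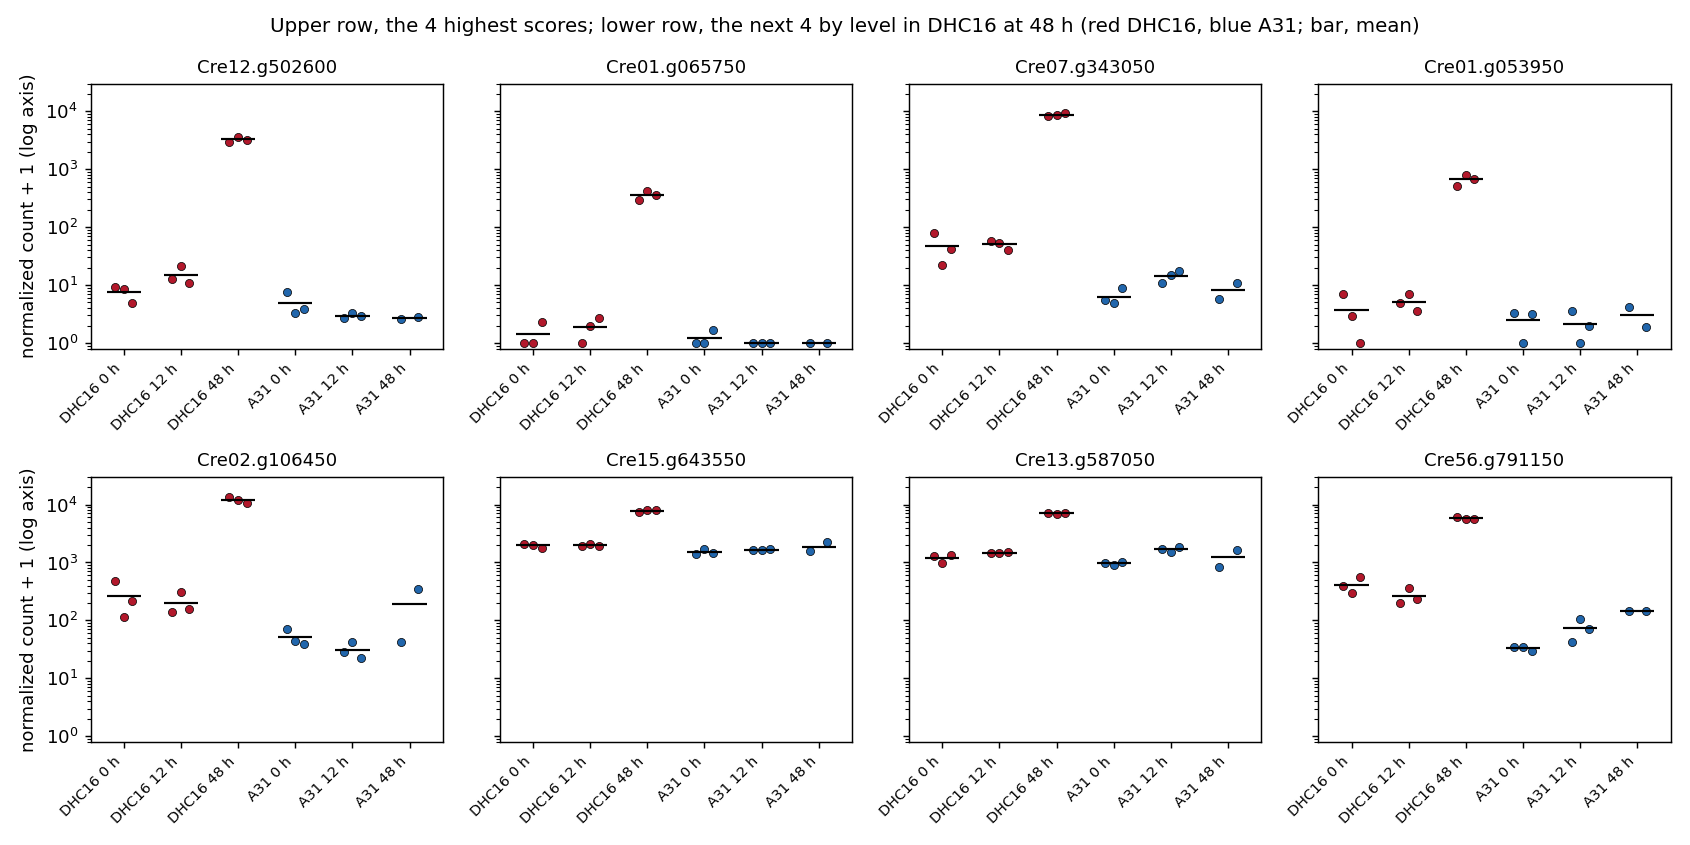
Normalized count + 1 (log axis) in each library, with red points for DHC16, blue points for A31 and a bar at the group mean. The upper row has the 4 highest scores and the lower row the next 4 genes by level in DHC16 at 48 h. Cre12.g502600 reached 2958 to 3654 in DHC16 at 48 h and stayed at or under 20.6 elsewhere, whereas Cre15.g643550 had at least 1373 in every library.

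The contrasts that leave out DHC16 at 48 h are not free of the choice of the genes. The scores took the highest of the other 14 libraries as an upper bound, and the difference of at least 1 used the DHC16 0 h mean. The counts of members called in these contrasts are therefore given as descriptions beside the share of all genes, and nothing is read from them. The p-values of single members in these contrasts are descriptions too. Members were called in both directions at 12 h in both strains. In DHC16 at 12 h against 0 h, 41 of the 200 were higher and 36 lower at an adjusted p under 0.05 (limma-trend, Benjamini-Hochberg over 14252 genes). Of all genes tested, 30.1% were higher and 26.7% lower, beside 20.5% and 18% of the members. In A31 at 12 h against 0 h, 44 of the 200 (22%) were higher and 43 (21.5%) lower, against 31.5% and 28.7% of all genes. The median change was 0.01 in DHC16 and 0.07 in A31 on the log2 scale, against 0.03 and 0.01 over all genes. Of the 152 members that reach a mean of 10 without the DHC16 48 h libraries, 35 were higher and 32 lower in DHC16, and 35 higher and 35 lower in A31. The share of all genes under that filter is not set beside these counts, so they do not show whether the members differ from all genes. Under per-million scaling the DHC16 split became 90 higher and 6 lower, with 54.6% and 8.86% of all genes, and the A31 split 65 higher and 25 lower, with 40.9% and 18.3%. The median of all genes under that scaling was 0.66 in DHC16 and 0.31 in A31, a move of 0.63 and 0.30.

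The 12 h changes of the strains rest on separate libraries. A total of 30 members were called higher in both strains (30 of 41 in DHC16 and of 44 in A31) and 23 lower in both (of 36 and of 43). Those are 15% and 11.5% of the 200, and 25.2% and 20.7% of all genes were called higher in both and lower in both. Of all genes, 3592 were higher in both (of 4286 in DHC16 and of 4486 in A31) and 2950 lower in both (of 3801 and of 4091). Among the members, 1 was called in opposite directions, 56 were called in a single strain and 90 in neither. The shares of all genes in these last classes were not computed, so nothing is read from those counts.

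On the log2(normalized count + 1) scale, the largest rise at 12 h was that of Cre03.g174400 in both strains. It had 148, 140 and 110 normalized counts in DHC16 at 12 h, against 4.08, 0 and 5.22 at 0 h. In A31 it had 166, 137 and 167 at 12 h, against 2.24, 1.53 and 2.11 at 0 h. The groups were far apart in each strain, with log2 changes of 5.39 (SE 0.46, adjusted p = 1.26e-07) in DHC16 and 5.74 (SE 0.46, adjusted p = 5.01e-08) in A31. At 48 h the strains parted, with 531, 716 and 728 normalized counts in DHC16 and 64.3 and 84.7 in A31.

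Cre02.g108150 had 54.0, 34.4 and 36.0 normalized counts in DHC16 at 12 h and no read in the 3 libraries at 0 h, at least 7.86-fold higher over the floor of 3 reads per library. In A31 it had 91.4, 57.6 and 63.6 at 12 h, against 0, 1.53 and 0.703 at 0 h. The A31 0 h libraries held 3 reads of it in all, and the ratio of pooled reads was 85.6 (exact 95% interval 29.0 to 418, counting error only). It was called higher in DHC16 (fitted log2 change 5.38, SE 0.44, adjusted p = 7.58e-08) and in A31 (5.44, SE 0.44, adjusted p = 5.63e-08). Cre17.g723400 had 27.5, 59.0 and 31.8 normalized counts in DHC16 at 12 h, against 6.13, 0 and 0 at 0 h, and its log2 change was 4.31 (SE 0.76, adjusted p = 0.000147). The 3 reads at 0 h all came from library 1, and the ratio of pooled reads was 23.1 (interval 7.71 to 113). Cre13.g569400 had 50.3, 48.3 and 65.6 normalized counts in A31 at 12 h, against 0, 1.53 and 0 at 0 h, with a log2 change of 5.34 (SE 0.49, adjusted p = 2.23e-07). The 2 reads at 0 h gave a ratio of 98.0 with an interval of 26.8 to 815. By pooled reads this ratio and that of Cre02.g108150 in A31 were above the 80.6 of Cre03.g174400.

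Among the genes that fell at 12 h, Cre07.g328800 was well read at 0 h. It had 48.1, 99.3 and 72.0 normalized counts in DHC16 at 12 h, against 596, 544 and 648 at 0 h. In A31 it had 39.4, 40.5 and 54.0 at 12 h, against 482, 560 and 604 at 0 h. The log2 change was -3.07 (SE 0.53, adjusted p = 0.000127) in DHC16 and -3.60 (SE 0.53, adjusted p = 2.89e-05) in A31, and the 12 h and 0 h values did not overlap in either strain. In DHC16 this gene was therefore low at 12 h and, at 48 h, had 2748, 3490 and 3066 normalized counts. Cre02.g107000 fell at 12 h by 2.81 on the log2 scale in DHC16 (SE 0.50, adjusted p = 0.000173) and by 3.26 in A31 (SE 0.50, adjusted p = 4.36e-05). It had 2.94 to 4.92 normalized counts in DHC16 at 12 h, against 19.3 to 42.9 at 0 h. In A31 at 12 h 2 reads were left, which makes the 0 h level 23.3 times the 12 h level (exact 95% interval 6.10 to 197.6). Cre13.g570800 had 7.85, 18.7 and 7.53 normalized counts in DHC16 at 12 h, against 81.7, 42.5 and 27.4 at 0 h (log2 change -2.03, SE 0.38, adjusted p = 0.000271). Cre03.g163650 had 2.51, 1.56 and 0 normalized counts in A31 at 12 h, against 11.2, 17.5 and 30.9 at 0 h. It reached the mean of 10 only through the DHC16 48 h libraries, so no test is given for it.

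**Figure D3:**
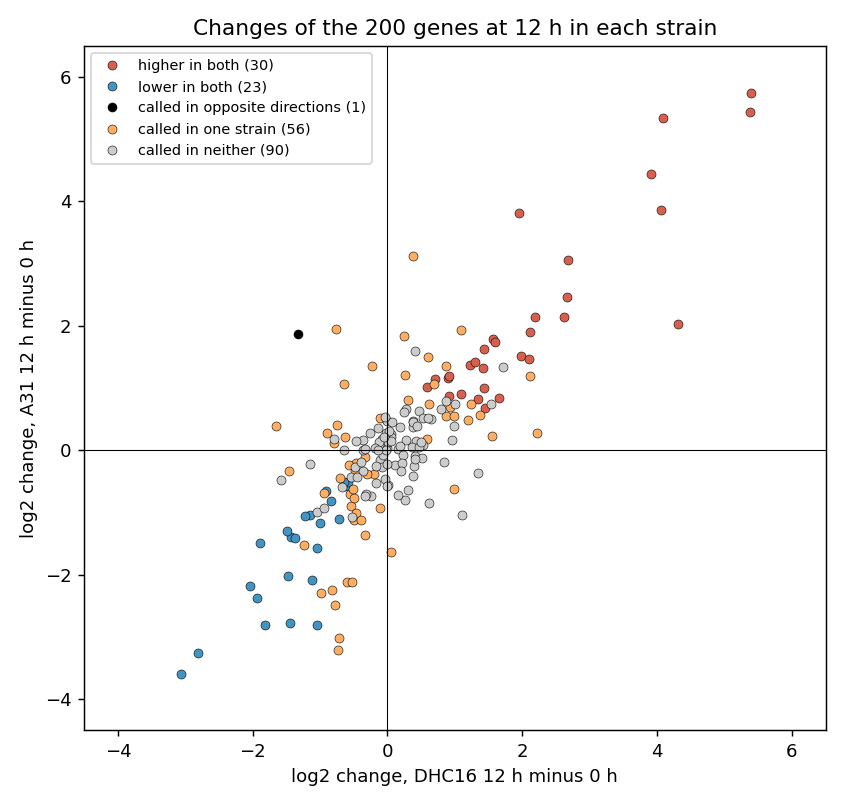
Log2 change of each of the 200 genes at 12 h against 0 h, in DHC16 on the horizontal axis and in A31 on the vertical axis, coloured by the limma-trend calls at an adjusted p under 0.05. Genes called higher in both strains (30) and lower in both (23) lie along the diagonal, and 1 gene was called in opposite directions.

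For the difference of the 12 h changes, DHC16 minus A31, no member passed the threshold with limma-trend, where 0.154% of all genes were called higher and 0.0982% lower. At an unadjusted p under 0.05 there were 15 members higher (7.5%) and 14 lower (7%), against 6.44% and 6.2% of all genes. These counts, too, include members that reached the mean of 10 only through the DHC16 48 h libraries. The edgeR quasi-likelihood test on recovered reads also called none, and DESeq2 called 1 higher and 3 lower. The share of all genes called by DESeq2 is not set beside these counts, so nothing is read from them. Some other settings called members as well, and their counts are in the closing section. Among them were fits without A31 48 h library 19 or 22, which enter this difference only through the shared spread. The gene called in opposite directions was Cre07.g320450, which is named because of that count. It had 1.96, 1.97 and 3.35 normalized counts in DHC16 at 12 h, against 8.17, 7.72 and 6.53 at 0 h. In A31 it had 6.71, 4.67 and 6.75 at 12 h, against 0, 3.05 and 0.703 at 0 h. These are a few reads per library. The gene reached the mean of 10 only through the DHC16 48 h libraries, so no test of the difference is given.

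In A31 at 48 h against 0 h, 30 of the 200 (15%) were higher and 5 (2.5%) lower, against 14.4% and 12.8% of all genes. The median change was 0.28 on the log2 scale over the members and 0.03 over all genes. Of the 152 members that reach the mean without DHC16 at 48 h, 26 were higher and 4 lower. The share of all genes under that filter is not set beside them, and nothing is read from them. All counts of this comparison rest on 2 libraries at 48 h. Without library 19 there were 66 higher and 15 lower, with 26.6% and 23.8% of all genes, and without library 22 there were 10 higher and 2 lower, with 3.9% and 2.75%. Without library 7 of the A31 0 h group there were 18 higher and 3 lower, with 10.2% and 7.88% of all genes. Without its library 1 there were 2 lower, with 8.13% of all genes, and without its library 4 there were 3 lower, with 9.71%.

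On the log2(normalized count + 1) scale, the largest rises were again those of Cre03.g174400 (log2 change 4.67, SE 0.52, adjusted p = 9.15e-06), Cre13.g569400 (4.47, SE 0.55, adjusted p = 2.62e-05) and Cre02.g108150 (4.0, SE 0.49, adjusted p = 2.87e-05). Cre02.g108150 had 11.8 and 51.9 normalized counts in A31 at 48 h, and its call was lost (adjusted p = 0.0643) when only the groups compared entered the fit, with adjusted p from 2.45e-07 to 0.0643 over the alternatives run. The pooled ratio over the 3 reads at 0 h was 36.7 (interval 12.1 to 182), and over the 2 reads of Cre13.g569400 it was 53.5 (interval 14.3 to 450). The largest falls were small in reads. Cre02.g107000 had 3.14 and 0 normalized counts in A31 at 48 h, against 17.9, 9.15 and 14.1 at 0 h (log2 change -2.81, SE 0.56, adjusted p = 0.00208). Cre12.g554950 had 4.70 and 10.9, against 22.4, 13.7 and 21.8 (-1.27, SE 0.42, adjusted p = 0.0345). Both calls were lost with only the groups compared in the fit. The call of Cre02.g107000 was also lost without library 22, and that of Cre12.g554950 without library 19 or without library 1 or 7 at 0 h. Cre06.g284200 had 2.35 and 0 normalized counts in A31 at 48 h, against 10.1, 10.7 and 2.81 at 0 h, and it too reached the mean of 10 only through DHC16 at 48 h. Its 3 reads at 48 h make the 0 h level 5.89 times the 48 h level (exact 95% interval 1.81 to 30.3).

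At 0 h, 15 of the 200 (7.5%) were higher in DHC16 than in A31 and 4 (2%) lower, against 4.79% and 4.65% of all genes. The rule used both groups, DHC16 at 0 h as the base of the difference and each library as part of the upper bound. These counts therefore support nothing, and the p-values of single genes at 0 h given below are descriptions only. Of the 152 members that reach the mean without DHC16 at 48 h, 11 were higher and 3 lower. The share of all genes under that filter is not set beside these counts either. Under per-million scaling there were 5 higher and 67 lower, with 0.737% and 49.3% of all genes, and the median of all genes moved by -0.58. The count of 15 also changed with single libraries. It was 6 without DHC16 library 1, with 2.87% of all genes. It was 9, 8 and 5 without A31 libraries 1, 4 and 7 at 0 h, with 2.84%, 3.35% and 1.88% of all genes. It was 27 and 28 without A31 libraries 19 and 22 at 48 h, which enter through the shared spread, with 9.42% and 9.44% of all genes.

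Cre56.g791150, described in the authors' deposited table only as a predicted protein, had the largest difference upward. It had 384, 297 and 560 normalized counts in DHC16 at 0 h, against 33.6, 34.3 and 28.1 in A31 at 0 h. The strains did not overlap, with a log2 difference of 3.61 (SE 0.29, adjusted p = 1.23e-06). Cre07.g343050 had 77.6, 21.2 and 40.5 normalized counts in DHC16 at 0 h, against 4.48, 3.81 and 7.73 in A31 at 0 h (2.77, SE 0.38, adjusted p = 0.000316). Cre12.g521950 had 57.2, 38.6 and 15.7, against 4.48, 6.10 and 4.92 (2.46, SE 0.50, adjusted p = 0.00547). In these 3 genes DHC16 was above A31 in every library at 0 h.

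In the other direction, Cre16.g686850 had 0, 0 and 2.61 normalized counts in DHC16 at 0 h, against 39.2, 22.9 and 24.6 in A31 at 0 h (log2 difference -4.24, SE 0.50, adjusted p = 0.000104). The 2 reads in DHC16 make the A31 level 24.5 times the DHC16 level, with an exact 95% interval of 6.6 to 205. At 48 h the order was the opposite, at 317, 442 and 372 normalized counts in DHC16 and 19.6 and 47.3 in A31. Cre04.g218350 (-2.15, SE 0.34, adjusted p = 0.00108) was also lower in DHC16 at 0 h.

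A further readout comes from the rapamycin part of the study. The authors' deposited table lists genes with an absolute log2 change of at least 1 and an adjusted p under 0.01, from A31 given rapamycin against A31 at 0 h. At 2 h the authors' deposited table lists 43 of the 200 (21.5%) higher and 1 lower (Cre02.g142050, log2 change -1.14). Of all 13489 genes without a symbol, the authors' deposited table lists 4.27% higher and 5.53% lower at 2 h. At 8 h the authors' deposited table lists 74 of the 200 (37%) higher and 0 lower, against 3.21% and 5.09% of all genes without a symbol. The A31 0 h records of the rapamycin part carry the same numbers as those of the vitamin part, so the comparisons may share these controls. The scores took these libraries as part of their upper bound, and the listed shares are therefore given as a description. When the A31 0 h libraries entered neither the score nor the filter, an alternative chosen after seeing the data, 190 of the 200 were chosen again. Of the 200 highest scores in that setting, 42 (21%) were listed higher at 2 h and 72 (36%) at 8 h in the authors' deposited table, against 4.3% and 3.22% of all genes without a symbol. The levels in the authors' deposited table are on a scale that is not stated, and no rapamycin library was analysed here.

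Higher at both times in the authors' deposited tables were 42 genes and 76 were listed at either time, and 35 of the 42 had the larger log2 change at 8 h. The median log2 change of the listed members in the authors' deposited tables was 1.56 at 2 h and 1.68 at 8 h, where it ran from 1.00 to 4.79. The share listed was smaller in classes of lower score. By blocks of 50 ranks, 21, 20, 19 and 14 members were listed higher at 8 h in the authors' deposited table. Of the next 200 genes by score, the authors' deposited table lists 33 higher at 8 h (16.5%), and of the 576 after them 61 (10.6%). Of 1795 genes that were at least 1 higher in DHC16 at 48 h than at 0 h but had a score at or under 0, it was 80 (4.46%), and of 10718 with a smaller difference it was 185 (1.73%), both in the authors' deposited table.

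**Figure D4:**
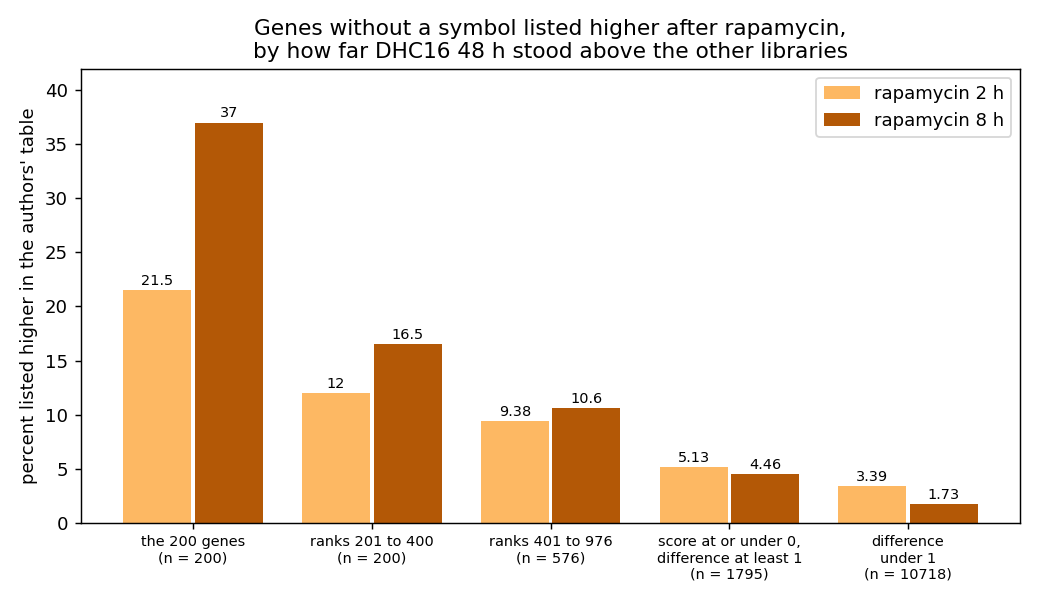
Percent of genes without a symbol that the authors' deposited tables list as higher in A31 after 2 h and 8 h of rapamycin, by class of score, with the number of genes in each class. The share at 8 h was 37% for the 200 genes and 1.73% for genes whose DHC16 difference between 48 h and 0 h was under 1.

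The largest rapamycin changes among the 200 were those of Cre17.g725750, Cre02.g106450 and Cre10.g447800. In the authors' deposited tables the log2 change of Cre17.g725750 was 3.75 at 2 h and 4.79 at 8 h, that of Cre02.g106450 was 3.67 and 4.50, and that of Cre10.g447800 was 3.02 and 4.38. The mean level of Cre17.g725750 in the authors' deposited table was 138.5 at 8 h, against 2.82 at 0 h. In the count table Cre17.g725750 had 4932, 4013 and 4277 normalized counts in DHC16 at 48 h, against 223, 61.8 and 101 in DHC16 at 0 h. Its A31 48 h libraries held 168 and 1090, and the lowest DHC16 48 h library was 3.68 times the second of these. Cre10.g447800 had 4215, 4476 and 4392 normalized counts in DHC16 at 48 h, against 447, 357 and 410 in DHC16 at 0 h.

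Only 7 of the 200 carry a description in the authors' deposited tables, and all 7 were listed higher at 8 h. The tables describe listed genes only, so a listing at 2 h or 8 h follows from the source. Of the 76 members listed at either time, 74 were listed higher at 8 h, so nothing is read from this. For 4 the words are "predicted protein" (Cre16.g655000, Cre56.g791150, Cre12.g552750 and Cre07.g352800). Cre02.g086500 is described as a fructose 2-6 bisphosphatase or phosphoglycerate mutase, enzymes of sugar phosphate metabolism. It had 1101, 1054 and 1299 normalized counts in DHC16 at 48 h, against 91.9, 67.5 and 64.0 in DHC16 at 0 h. Cre13.g593900 is described as an acetyltransferase, an enzyme class that moves acetyl groups. It had 148, 190 and 152 normalized counts in DHC16 at 48 h, against 8.17, 5.79 and 6.53 in DHC16 at 0 h. This gene was already called higher at 12 h in DHC16, by 1.43 (SE 0.36, adjusted p = 0.00265), and in A31, by 1.00 (SE 0.36, adjusted p = 0.023). Cre17.g725200 is described as an MDR-like ABC transporter, a class of membrane pumps. It had 4430, 4563 and 4653 normalized counts in DHC16 at 48 h, against 1225, 843 and 1084 in DHC16 at 0 h.

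Some single libraries outside DHC16 at 48 h were high for many of these genes at once. The highest library after the DHC16 48 h ones was A31 library 22 at 48 h for 38 genes, DHC16 library 1 at 0 h for 41 and DHC16 library 13 at 12 h for 26. Library 13 was the highest of the 3 DHC16 12 h libraries for 54 of the 74 members listed at 8 h in the authors' deposited table (73%), for 65 of the other 126 (51.6%) and for 32.5% of all genes tested. A31 library 22 was above library 19 for 55 of the 74 (74.3%), for 67 of the 126 (53.2%) and for 50.8% of all genes. DHC16 library 1 was the highest at 0 h for 47 of the 74 (63.5%), for 74 of the 126 (58.7%) and for 39% of all genes. The median normalized count of the 74 was 110 in DHC16 library 13, against 67.7 and 71.5 in libraries 10 and 16. In A31 at 48 h it was 119 in library 22 and 72.9 in library 19. Cre12.g505050 shows the pattern, with 364 normalized counts in DHC16 library 13, against 106 and 118 in the other DHC16 12 h libraries, and 1055 in A31 library 22, against 190 in library 19. The part of these libraries in the results at 12 h and 48 h was not tested beyond leaving each out.

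Some of the 200 are neighbours in the genome. In the gene order of the RefSeq assembly Chlamydomonas_reinhardtii_v5.5, used for neighbours only, 150 of the 200 were placed, on 17 chromosomes. They formed 10 neighbouring pairs that hold 18 members, 12% of those placed. Of 10949 other tested genes in this order, 211 (1.93%) had a member beside them. None of the 10 pairs overlapped in that assembly. Whether reads were shared between neighbours of like sequence was not tested, since no sequence was used here. Both genes of 3 pairs were listed higher at 8 h in the authors' deposited table, and 1 gene of 4 pairs.

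The longest run held 4 consecutive members, Cre13.g569350, Cre13.g569400, Cre13.g569450 and Cre13.g569500. They differed at the earlier times. Cre13.g569350 had 830, 663 and 819 normalized counts in DHC16 at 48 h and 110 to 213 in all other libraries, with no call in any of the tests made. Cre13.g569450 had 351, 417 and 558 normalized counts in DHC16 at 48 h, and in A31 it had 15.1, 11.7 and 12.5 at 12 h, against no read in 3 libraries at 0 h, at least 5.07-fold higher over the floor. It reached the mean of 10 only through DHC16 at 48 h, so no test is given for it. Cre13.g569500 had 4358, 6619 and 5143 normalized counts in DHC16 at 48 h. At 12 h it fell by 1.44 on the log2 scale in DHC16 (SE 0.37, adjusted p = 0.00309) and by 2.78 in A31 (SE 0.37, adjusted p = 1.06e-05). At 12 h Cre13.g569400 was thus called higher and Cre13.g569500 lower, in both strains.

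Beside loci with a symbol stood 15 members, next to 17 such loci. Cre17.g723400 is the neighbour of SULTR2, a sulfate transporter. Cre17.g723400 had 2568, 2933 and 2590 normalized counts in DHC16 at 48 h and SULTR2 had 2666, 3237 and 3281. In DHC16 at 12 h Cre17.g723400 had 27.5, 59.0 and 31.8 and SULTR2 20.6, 63.9 and 36.0, and in A31 library 13 both had 15.6. Both genes were thus high in DHC16 at 48 h and lower at 12 h, and whether reads of one were counted for the other was not tested. Cre03.g174400 lies between PWR2 and PWR1, loci of the same family name in the authors' deposited table. PWR1 had 5971, 7368 and 7185 normalized counts in DHC16 at 48 h and 107 to 365 elsewhere, and at 12 h it shared no rise with Cre03.g174400 in A31 (111, 107 and 112 at 12 h, against 226, 249 and 238 at 0 h). Cre07.g318850 lies beside HSP22A, a small heat shock protein, whose DHC16 48 h libraries were 89.2, 1744 and 110 normalized counts. Cre10.g431450 lies beside TRZ1, a nuclear RNase Z, and Cre06.g298800 beside AOT4, an amino acid transporter. TRZ1 had 1158, 1276 and 1256 normalized counts in DHC16 at 48 h, against 161, 106 and 88.8 in DHC16 at 0 h. Of the 17 symbol loci, 9 were at least 1 higher on the log2 scale in DHC16 at 48 h than at 0 h, as were 238 of all 763 with a symbol.

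**Figure D5:**
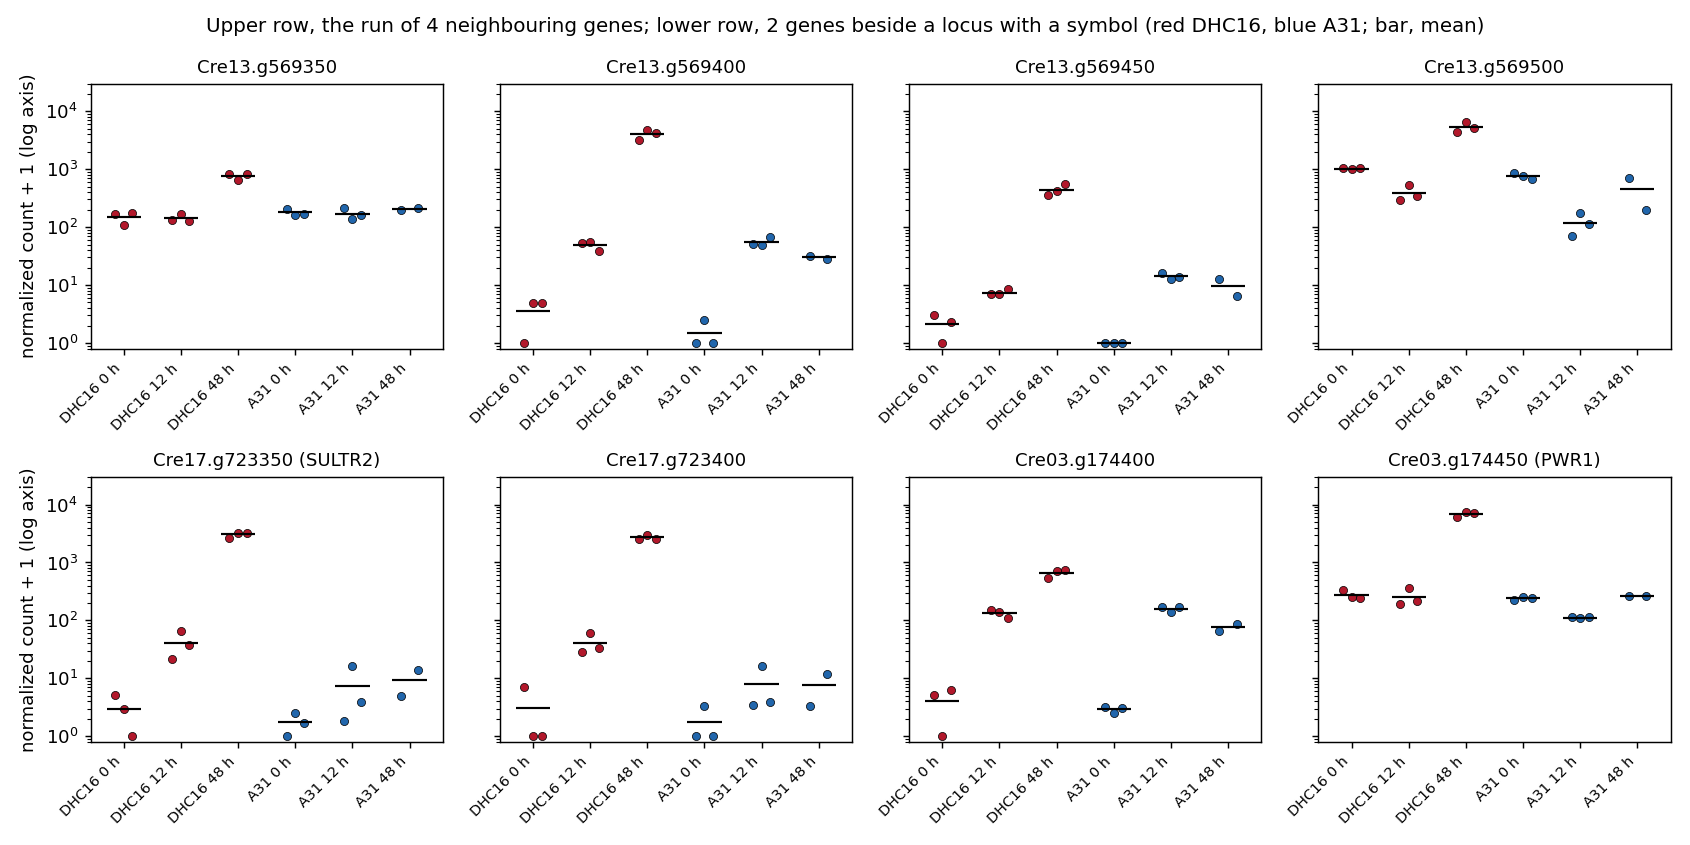
Normalized count + 1 (log axis) in each library, with red points for DHC16, blue points for A31 and a bar at the group mean. The upper row has the run of 4 neighbouring genes and the lower row Cre17.g723400 and Cre03.g174400 with the neighbouring symbol loci SULTR2 and PWR1. SULTR2 and Cre17.g723400 are both highest in DHC16 at 48 h, whereas Cre03.g174400 and PWR1 differ at 12 h in A31.

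Loci with a symbol were left out of the 200, and symbols come only from the authors' rapamycin tables, so each such locus was listed there at 2 h or 8 h. Of 763 such loci, 30 (3.93%) had a score at or above that of the 200th gene, and the 200 taken were 1.48 per 100 genes without a symbol. The 6 with the highest scores were HSP22E (5.37), SULTR2 (5.36), HSP22F (4.96), SLT2 (4.22), PWR1 (4.03) and DEG1C (2.94). HSP22E and HSP22F are small heat shock proteins, SLT2 is a sodium and sulfate co-transporter and DEG1C a DegP-type protease. HSP22E had a score within the range of the 12 highest members, with 21443, 31721 and 25327 normalized counts in DHC16 at 48 h and 58.7 to 519 elsewhere. Of the other loci of protein quality control and autophagy that were looked up, CLPB3 scored 1.59 and APG8 1.84, both within the range of the 200. HSP70B (1.06), APG3 (0.71), VIPP1 (0.52), FTSH2 (0.29), FTSH1 (-0.10) and CGE1a (-0.82) scored below it, as did SLT3 (1.22). The 7 highest-scoring genes without a symbol, from Cre12.g502600 to Cre17.g723400, all scored above HSP22E.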

How the data were processed

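Normalized counts per gene and library, deposited by the authors, are a signal that equals whole reads times the worth of 1 read in each library, as the values show (100% whole within 0.01). For rapamycin they deposited mean levels, log2 fold changes headed as moderate, and p-values, per the file headers. HTSeq 0.5.3p9, edgeR 3.0.8, TopHat 1.3.1 and CASAVA 1.8.2 are named without roles, per the submitters' processing notes. The build, annotation, strand setting and scaling method were not given in the sources used here.

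The score and the filter (mean of at least 10) follow the rule given in the report. Contrasts without the DHC16 48 h libraries were tested with limma-trend on log2(normalized count + 1), with all 17 libraries sharing the spread, p-values adjusted by Benjamini-Hochberg over 14252 genes, and a threshold of 0.05. This scale understates changes of low genes. Alternatives on recovered reads were edgeR quasi-likelihood with TMM and DESeq2, and others were per-million and quantile scaling, a pseudocount of 5, other filters, fewer groups and single libraries left out. The fit was also run on simulated data, whose outcome is not reported here and from which no conclusion is drawn. Counting intervals and the floor of 3 reads cover counting error only.

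Members and lists were chosen with earlier results of these data known. Named genes are the 12 highest scores, the 4 highest levels, the 3 largest called changes per contrast and direction, the 3 largest rapamycin changes, the longest run of neighbours, the genes around rank 200, described genes, and a list of symbol loci. VIPP2, SLT1, ARS1 and ARS2 of that list carry no symbol in the authors' rapamycin tables. Whether any of them is among the 200 was not checked. Proteins and promoters were not used here, and RefSeq coordinates were used only for the order and overlap of neighbours. Versions were limma 3.58.1, edgeR 4.0.16 and DESeq2 1.42.0.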

Additional observations from a re-analysis of the deposited data

How the results depend on the processing

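Of the 200 genes, 172 were chosen again under per-million scaling, 184 under quantile normalization, 192 with a pseudocount of 5, 152 when the mean of 10 was asked of the other libraries, and at least 172 when a library was left out. Per-million scaling gave 90 members higher and 6 lower in DHC16 at 12 h, 25 lower in A31 at 12 h, 15 higher in A31 at 48 h, and 5 higher and 67 lower in DHC16 against A31 at 0 h. It also called 1 member higher in the difference of the 12 h changes. DESeq2 called 1 member higher and 3 lower in that difference, and 24 higher in DHC16 against A31 at 0 h. With only the groups compared in the fit, A31 at 48 h gave 4 higher and 0 lower, and the difference of the 12 h changes 5 lower. Quantile normalization gave 8 lower in A31 at 48 h, and no filter gave 1 lower in the difference. The cause was not tested in any of these. Member counts in this section stand without the share of all genes called in the same setting. They therefore do not show whether the members moved apart from all genes, and nothing is read from them. Per-million scaling moved the median of all genes by 0.63 and 0.30 at 12 h in DHC16 and A31, by 0.33 in the difference of the 12 h changes, by -0.19 in A31 at 48 h and by -0.58 between the strains at 0 h. Quantile normalization moved it by -0.12 in DHC16 and -0.15 in A31 at 12 h.

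Leaving out a library gave 32 to 48 higher and 24 to 40 lower in DHC16 at 12 h, and 39 to 49 higher and 31 to 45 lower in A31 at 12 h. For the difference of the 12 h changes it gave 0 to 3 higher and 0 to 7 lower, with 3 and 7 reached without A31 48 h library 19 or 22 and 1 lower without A31 0 h library 4. For A31 at 48 h it gave 10 to 66 higher and 2 to 15 lower, and for DHC16 against A31 at 0 h 5 to 28 higher and 3 to 7 lower, with 7 without A31 48 h library 19 or 22.

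The library numbers are shared by the strains. Deviations of same-numbered libraries had correlations of 0.229, 0.215 and 0.152 at 0 h. They were 0.179, 0.009 and -0.027 at 12 h, and -0.088 and 0.059 at 48 h. The labels do not say whether a number marks a shared culture or day, and these values cannot tell. With the number as a replicate block, the difference of the 12 h changes called 0 members higher and 0 lower, and DHC16 against A31 at 0 h 12 higher and 4 lower. No named change reversed its direction under any alternative run. Depth limits the genes with a few reads per library, whose log2 changes depend on the pseudocount.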
